A study of Glycine max with 6 samples.

Results

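The SWEET genes of soybean (Glycine max) encode sugar transporters, and their transcripts were followed in cotyledons whose storage proteins had been suppressed. Members were all soybean probe sets whose gene symbol in the platform annotation begins with SWEET, whether detected or not, which gave 10 probe sets of 8 genes, among 37593 soybean probe sets and 6031 named genes in all. SWEET24 and SWEET13 were selected on their difference between the RNAi lines and the control, so for that contrast their values, and those of the rest of the family, are given as a description with no p-value. The RefSeq gene table (assembly Glycine_max_v4.0) names 43 SWEET genes, and the other 35 have no probe set under their name and were not analysed here.

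The samples were cotyledons, the storage organs of the seed, taken at a weight of 150 mg. RNAi line 1 and RNAi line 2 were independent transgenic soybeans, labelled RNAiSP-, made to suppress storage proteins by RNA interference, a way of silencing genes through small RNAs that match their transcripts. The third sample was a nontransgenic wild type, called jack in 1 of the labels. For each of the 3 samples there were 2 arrays as technical replicates, 6 altogether. The promoter of the construct, the storage protein genes it targets and the number of seeds per sample were not given in the sources used here. With 1 control sample, effects of genotype and of handling cannot be told apart.

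SWEET proteins sit in membranes and let sugars pass down their concentration gradient, and different members carry sucrose or hexoses. A developing embryo has no vascular connection to its mother, so sugar has to leave the seed coat, cross the space between and be taken up by the cotyledons, where it feeds the synthesis of protein, oil and starch. SWEET24 of soybean, also called GmSWEET10b, is known as a sugar exporter of the seed coat, and its close copy SWEET39 (GmSWEET10a) has the same role. SWEET39 has no probe set under its name on this array, and whether the SWEET24 probes also bind its transcript was not tested. SWEET numbers in soybean follow the chromosomes and do not match those of Arabidopsis, so no role was taken over by number for the other members.

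The number of arrays limits the precision of all values, which are probe set signals on a linear intensity scale. Array medians ran from 57.8 to 72.4. The background limit of an array was set at the 95th percentile of its probe sets for other organisms, from 68.4 to 91.7. A probe set counted as detected if it lay above that limit on both arrays of at least 1 sample, as 27460 soybean probe sets did, and these were tested. Differences are in log2(signal + 16), so that changes of weak signals come out too small. Arrays of the RNAi lines were about as far apart between the lines as within a line: the standard deviation of the log2 difference over tested probe sets was 0.31 within line 1, 0.34 within line 2 and 0.31 to 0.36 between the lines, against 0.53 to 0.57 between a line and the control. Marker transcripts of cotyledon storage tissue were present, with 21 of 22 probe sets detected. All 21 had a difference below 0 (median -0.30), where 51.7% of all tested probe sets lay above 0. All 4 RNAi arrays were below both control arrays at only 10 of the 21, where 23.6% of all tested probe sets did so. At the rest of the 21 the groups overlapped. Of the 21, 5, of the storage protein genes GY2, GY3 and CG-BETA-1, were called lower by limma, where 0.594% of all tested probe sets were. The summed signal of all 22 probe sets was 588363 to 792551 on the RNAi arrays and 1024338 to 1034946 on the control arrays.

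Of the 10 SWEET probe sets, 7 were detected, and 5 of these lay above the background limit on all 6 arrays: SWEET24, SWEET13, SWEET42, SWEET34 and the brighter probe set of SWEET31. SWEET28 counted as detected through the RNAi lines alone and SWEET29 through the control alone, so each had to differ in that direction. The remaining 3 probe sets, both of SWEET17 and the dimmer one of SWEET31, were above the limit on no array, with signals from 2.03 to 70.3. The brightness of a probe set depends on its probes as well as on the transcript, so signals and ranks of different genes do not order their transcripts. With that limit, the family ran in the control from rank 4754 of the 37593 soybean probe sets, counted from the brightest, for SWEET13, to rank 34421 for the dimmer probe set of SWEET17.

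**Figure D1:**
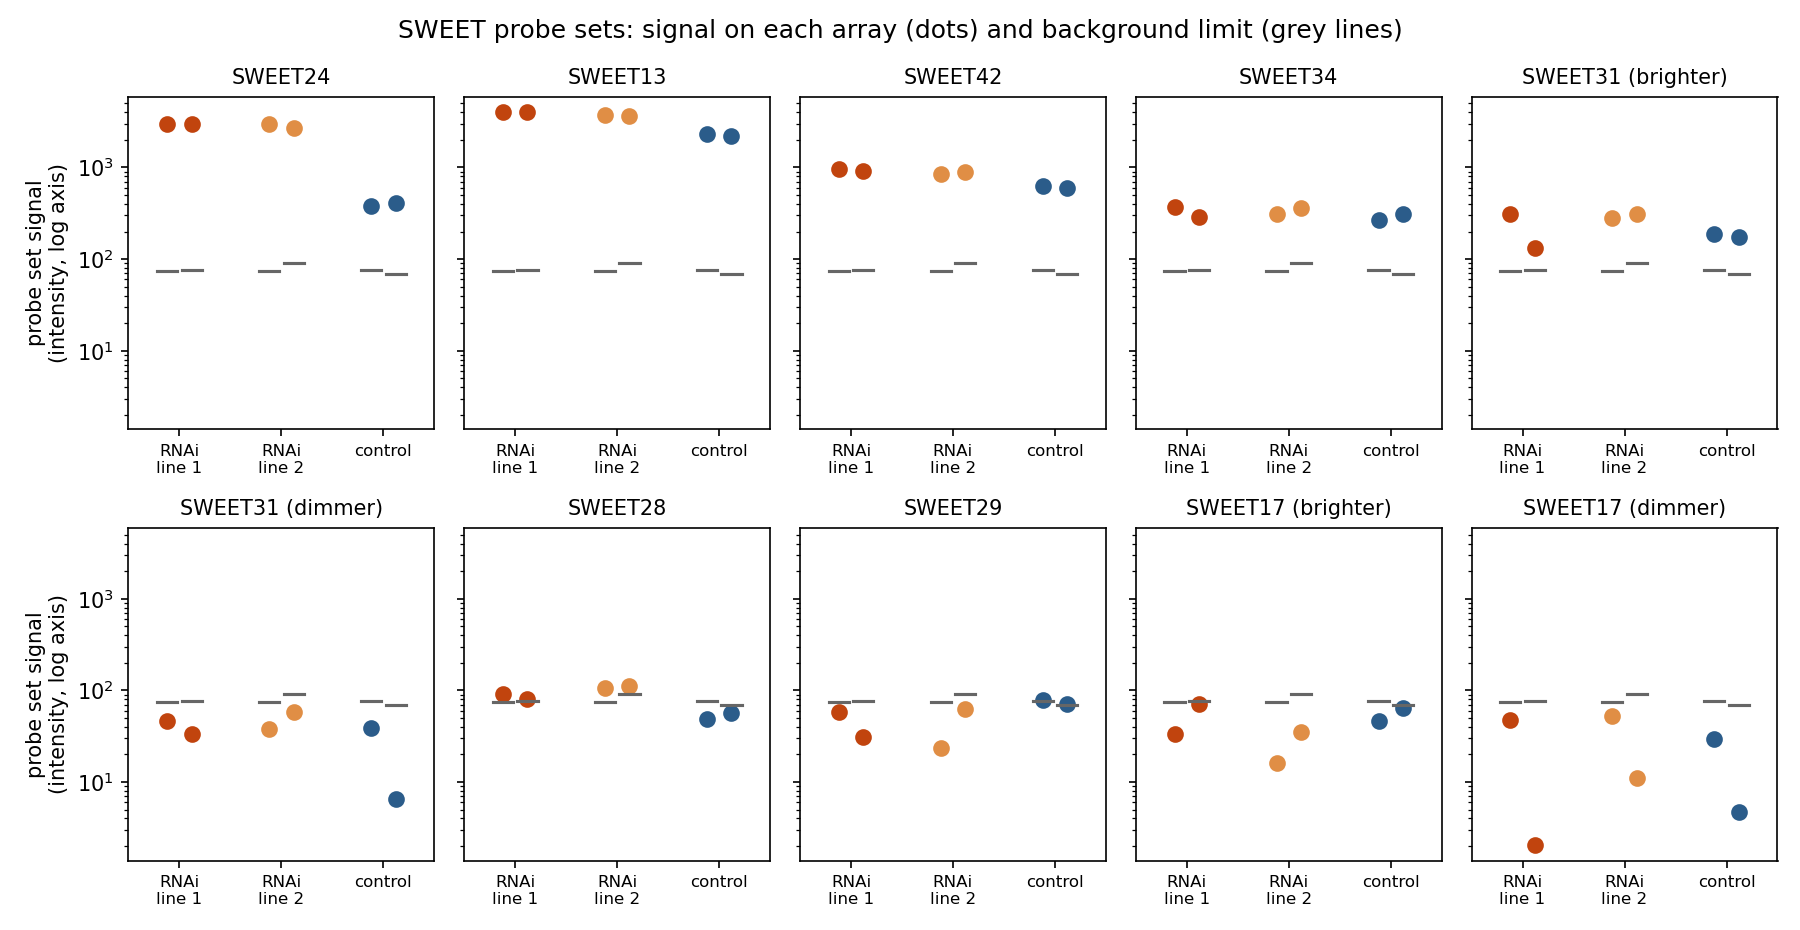
Signal of each SWEET probe set (intensity, log axis) on the 2 arrays each of RNAi line 1, RNAi line 2 and the control; each dot is 1 array and each grey line is the background limit of that array. SWEET24 lies between 2728 and 3012 on the RNAi arrays and at 381 and 408 on the control arrays, and both SWEET17 probe sets stay under the limit on every array.

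SWEET24 stood far higher in both RNAi lines than in the control. Its probe set (NCBI gene 100800347) had signals of 2946 and 2988 in RNAi line 1, 3012 and 2728 in RNAi line 2, and 381 and 408 in the control. Every RNAi array lay above both control arrays, and the arrays of a sample differed far less than the groups did. The signal averaged 2919 ± 68.7 (SD, n = 2 lines) in the RNAi lines against 394.7 in the control, a ratio of 7.39. It was 7.52 times the control in line 1 and 7.27 times in line 2. The log2 difference was 2.84 for the mean of the lines, 2.86 for line 1 and 2.81 for line 2. By brightness the probe set stood at rank 3686 of the 37593 soybean probe sets in the RNAi lines and at rank 16198 in the control, above 90.2% and 56.9% of them. In the ranking of rises over all 27460 tested probe sets it was number 9, with 0.0291% of them higher. That place was 31 with a pseudocount of 1, 4 with a pseudocount of 64, and 16 and 15 without control replicate 1 or 2.

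SWEET13 was the brightest SWEET probe set in all 3 samples and differed much less between them. Its probe set (NCBI gene 100800304) had signals of 4070 and 4021 in RNAi line 1, 3749 and 3634 in RNAi line 2, and 2296 and 2202 in the control. Here too all 4 RNAi arrays were above both control arrays, and technical repeats differed by at most 1.04 times. The mean signal was 3869 ± 251 (SD, n = 2 lines) in the lines and 2249 in the control, a ratio of 1.72. The log2 difference was 0.84 in line 1 and 0.71 in line 2, and 0.78 for their mean. It was rise number 1397 of 27460, so 5.08% of all tested probe sets had a higher difference. That place was 891 with a pseudocount of 64, 1802 without control replicate 2, and 2584 of 37593 with no filter. By brightness SWEET13 stood at rank 2747 in the RNAi lines and 4754 in the control.

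**Figure D2:**
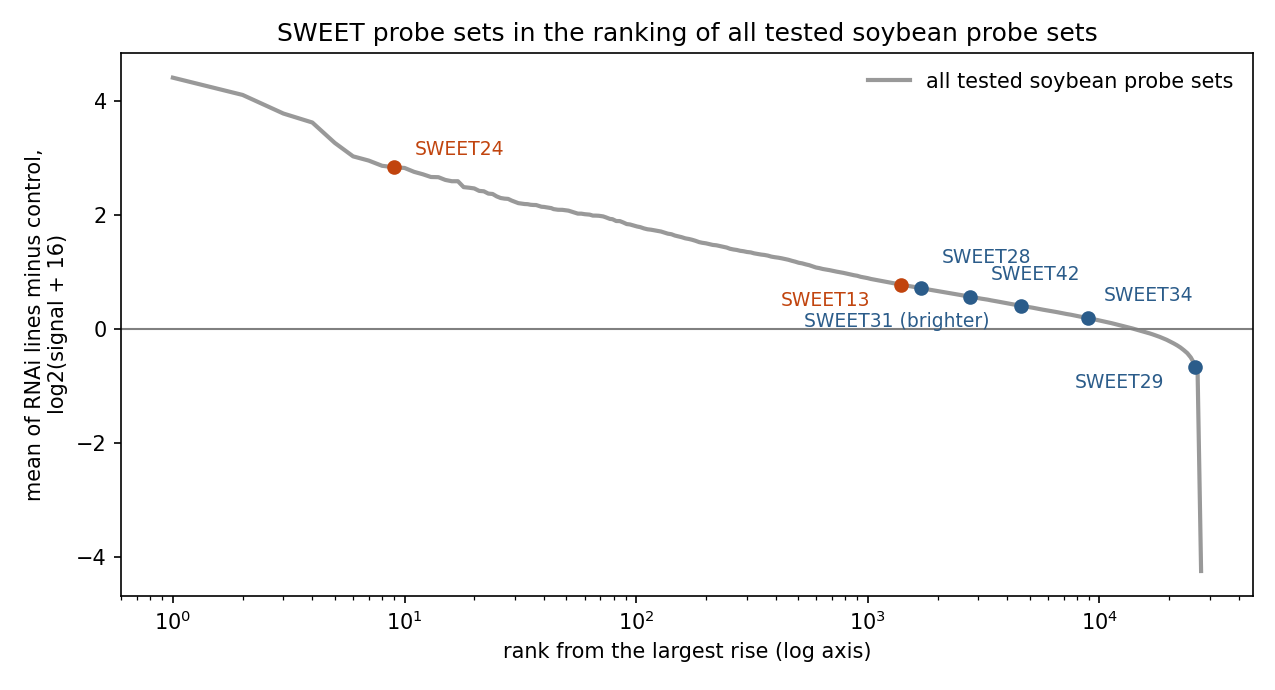
Difference between the mean of the RNAi lines and the control, in log2(signal + 16), against the rank from the largest rise (log axis) for all 27460 tested soybean probe sets (grey curve), with the 7 detected SWEET probe sets as points. SWEET24 stands at rank 9, SWEET13 at rank 1397 and SWEET29 at rank 25975, in the falling end of the curve.

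Among the other detected members, SWEET28 and SWEET42 also had all 4 RNAi arrays above both control arrays. SWEET28 (NCBI gene 100808537) had signals of 91.7 and 81.3 in RNAi line 1, 107.4 and 110.9 in RNAi line 2, and 49.3 and 56.4 in the control. It was above the background limit on all 4 RNAi arrays and on neither control array, so its size is only a bound, at least 1.35-fold higher in the lines, and its measured log2 difference of 0.72 depends on the pseudocount. SWEET42 (NCBI gene 100790469) had 965 and 904 in RNAi line 1, 855 and 903 in RNAi line 2, and 624 and 590 in the control. Its groups did not overlap, with a ratio of 1.49 between the mean of the lines and the control, and log2 differences of 0.61 in line 1 and 0.52 in line 2. It stood at rank 10020 by brightness in the RNAi lines and 12914 in the control. Among members above background on all arrays, SWEET42 thus came next after SWEET13, at 0.57 against 0.78, with SWEET24 at 2.84.

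SWEET31 and SWEET34 had groups that overlapped. The brighter SWEET31 probe set (NCBI gene 100777281) had 308 and 131 in RNAi line 1, 283 and 312 in RNAi line 2, and 190.1 and 172 in the control. The technical repeats of line 1 were 2.35 times apart, wider than the difference between the groups, and 1 of them fell below both control arrays. Its log2 difference of 0.41 became 0.69 without RNAi line 1 replicate 2 and 0.12 without RNAi line 1 replicate 1. The dimmer SWEET31 probe set was under the limit throughout, so the gene was read by 1 probe set only. SWEET34 (NCBI gene 100305842) had 373 and 290.3 in RNAi line 1, 308 and 363 in RNAi line 2, and 270.03 and 307 in the control. Its log2 difference was 0.19, which ran from 0.11 without control replicate 1 or without RNAi line 1 replicate 1 to 0.28 without the other array of either sample, and its rank by brightness 17588 in the RNAi lines and 18476 in the control. The technical repeats of line 1 were 1.28 times apart, wider than the ratio of 1.16 between the mean of the lines and the control.

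SWEET29 was the 1 detected member with a difference below 0. Its probe set (NCBI gene 100776187) had 58.4 and 31.2 in RNAi line 1, 23.7 and 62.8 in RNAi line 2, and 79.1 and 71.0 in the control. The control arrays lay barely above the background limit and all 4 RNAi arrays below it. Held against that limit no fold can be given, since the bound came below 1. The log2 difference of -0.66 ran from -0.91 without RNAi line 2 replicate 2 to -0.41 without RNAi line 2 replicate 1. SWEET17 (NCBI gene 100810962) lies beside SWEET16 in the genome assembly, with 1 gene between it and SWEET15. It gave no level in any sample, since both its probe sets were under the background limit on every array. Technical repeats of a sample differed by up to 23.2 times at the dimmer probe set and up to 2.23 times at the brighter one.

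Over the 7 detected SWEET probe sets the median log2 difference was 0.57, against 0.02 over all 27460 tested, and 6 of 7 lay above 0, against 51.7% of all tested. Without SWEET24 and SWEET13 the median was 0.41 over 5 probe sets, 4 of them above 0. All 4 RNAi arrays were above both control arrays for 4 members, SWEET24, SWEET13, SWEET42 and SWEET28, where 25.9% of all tested probe sets did so. They were below both for 1, SWEET29, where 23.6% did so. In the limma fit on sample means 1 of 7 SWEET probe sets was called, SWEET24, where 1.64% of all tested probe sets were called (451, of them 288 or 1.05% higher and 163 or 0.594% lower), and since the contrast chose SWEET24 nothing is read from that count. After quantile normalization, after median centring, with no filter, with a pseudocount of 1 or without any 1 of the RNAi arrays, 0 probe sets were called, SWEET24 included. With arrays scaled to the spikes the calls were 26449 higher and 62 lower. A member that passed the detection limit only through the group where it was high had to differ, so these counts do not describe the family as a whole.

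Each line set against the control on its own, in a fit on the 6 arrays whose p-values measure technical spread, gave the same genes. In RNAi line 1, 4 of 7 were called higher by limma, where 7.97% of all tested probe sets were, and 0 lower, where 6.32% were. In RNAi line 2, 4 of 7 were called higher, where 8.48% of all were, and 0 lower, where 6.91% were. In both lines these were SWEET24, SWEET13, SWEET42 and SWEET28. The lines share their control arrays, so the 2 counts are not independent of each other. This contrast chose SWEET24 and SWEET13, and SWEET28 passed the detection limit only through the RNAi lines, so nothing is read from the counts.

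**Figure D3:**
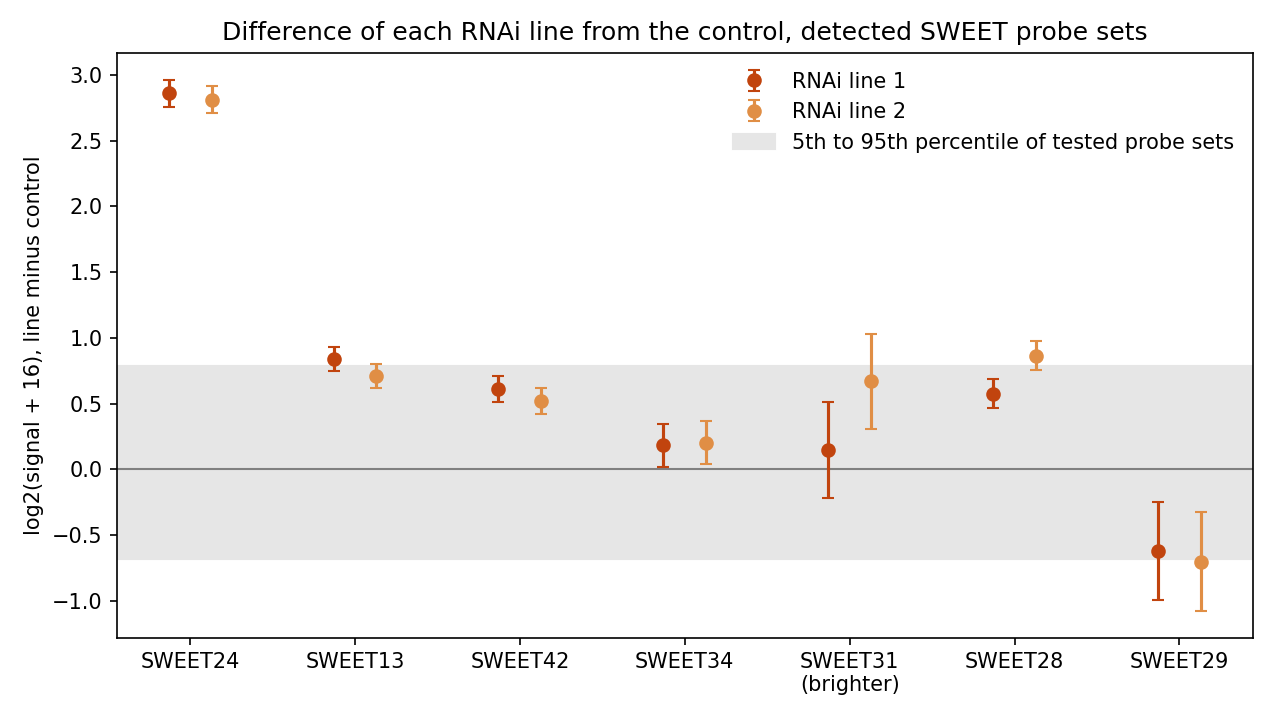
Log2(signal + 16) of each RNAi line minus the control for the 7 detected SWEET probe sets. Points are the mean over 2 arrays per sample, and bars 1 standard error from the fit on 6 arrays (technical spread). The grey band, -0.68 to 0.78, is the 5th to 95th percentile of all tested probe sets. It was taken from the mean of the lines minus the control, so it is not the spread of a single line. Only SWEET24 lies far outside the band in both lines, at 2.86 and 2.81.

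The lines were then compared with each other, a contrast that did not choose the members. Each line is 1 sample with 2 technical arrays, so these p-values and intervals cover technical spread only. No SWEET probe set differed between RNAi line 1 and RNAi line 2 by limma at an adjusted p below 0.05, nor did any of the 27460 tested probe sets (0 called, 0%), while 1598 of them (5.82%) had an unadjusted p below 0.05. For SWEET24 line 1 minus line 2 was 0.05 (95% interval -0.21 to 0.31, limma adjusted p = 0.989). The same difference for SWEET13 was 0.13 (95% interval -0.10 to 0.36, limma adjusted p = 0.964). SWEET42 had 0.09 (95% interval -0.16 to 0.33) and SWEET34 -0.02 (95% interval -0.43 to 0.39). SWEET28 had -0.29 (95% interval -0.57 to -0.01), with an unadjusted limma p of 0.0427 and an adjusted p of 0.847, so it was not called. The brighter SWEET31 probe set had -0.52, with an interval of -1.44 to 0.39 that leaves its order between the lines unsettled.

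All these directions assume the scaling that the deposited arrays already carried. The geometric mean signal of 24 probe sets for poly-A control RNAs, which are spiked into the RNA before labelling, was 1826 to 1944 on the RNAi arrays and 5538 and 5736 on the control arrays. Scaled to these spikes, the median difference of tested probe sets was 1.52, and 99.4% of tested probe sets stood above 0. SWEET24 then had a difference of 4.36 and SWEET13 one of 2.34, and relative to the median of all tested probe sets they stood at 2.84 and 0.83. SWEET29 had 0.53 on that scale, which is -0.98 relative to the same median. After quantile normalization SWEET24 had 2.82 and SWEET13 0.79. The 6 detected members above 0 stayed there under quantile normalization and median centring. Under spike scaling nearly every tested probe set stood above 0, so staying there says little. Relative to the median of all tested probe sets the 6 stood at 0.16 (SWEET34) to 2.84 (SWEET24) on that scale. What made the spike signals differ was not tested.

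**Figure D4:**
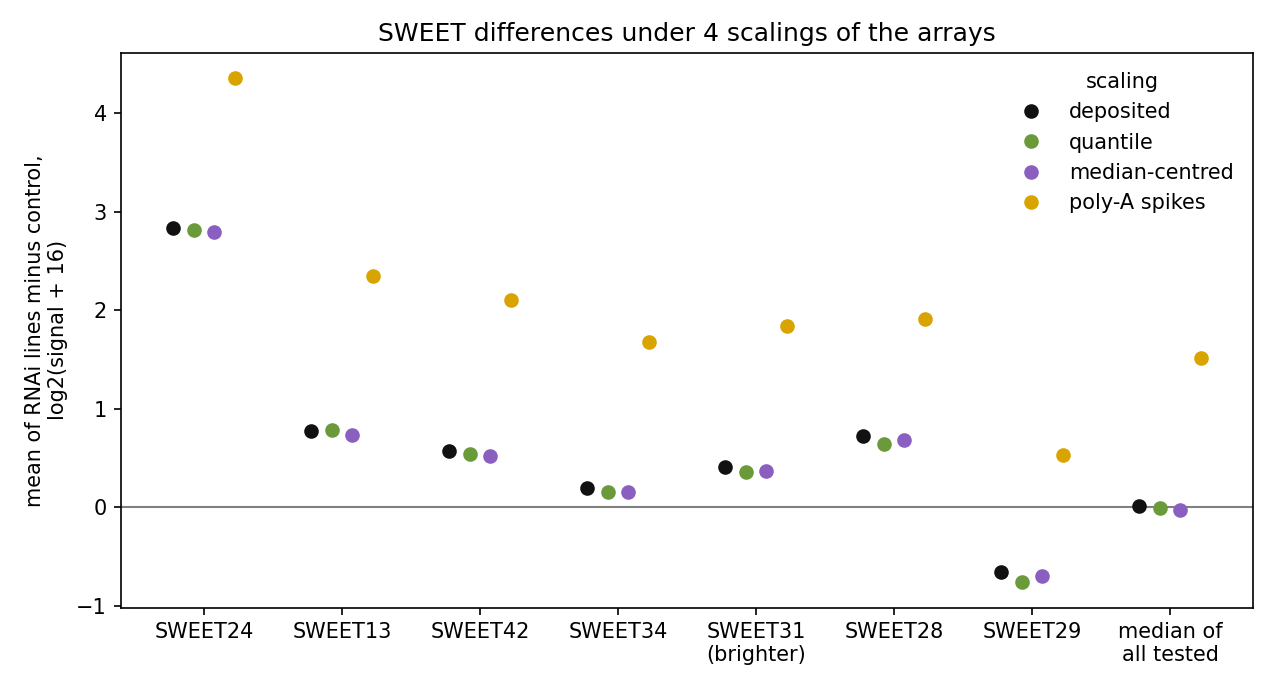
Mean of the RNAi lines minus the control in log2(signal + 16) for the 7 detected SWEET probe sets and for the median of all tested probe sets, with the deposited scaling, quantile normalization, median centring and scaling to the poly-A spikes (1 dot each). Spike scaling lifts the median of all tested probe sets to 1.52 and SWEET29 to 0.53, which is still -0.98 relative to that median, and SWEET24 is highest under each.

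Other genes of sugar transport and use were counted from lists of symbols. In the list of sucrose and hexose transport, 4 of 7 probe sets were detected and 0 of these were called by limma on sample means in either direction (451 of 27460 tested were, and 9095, or 33.1%, at an unadjusted p below 0.05), with a median log2 difference of 0.06. SUT1, a sucrose transporter that imports sucrose together with protons, had 3 detected probe sets that did not move alike. At the one with the largest difference its signals were 1223 and 1090 in RNAi line 1, 1320 and 1092 in RNAi line 2, and 762 and 877 in the control, a log2 difference of 0.52 (limma adjusted p = 0.0799). At the other two it was 0.04 and 0.004, with groups that overlapped. STP1, whose symbol is that of sugar transporters, had 0.09 at its detected probe set, and MST1 was below background on every array.

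In the list of sucrose cleavage and sugar metabolism, 4 of 5 probe sets were detected and 0 called by limma in either direction, where 1.64% of all tested probe sets were called. SS, sucrose synthase, which splits sucrose for the making of storage compounds, was bright in all samples. At its brightest probe set it had 22739 and 21347 in RNAi line 1, 20252 and 23448 in RNAi line 2, and 24857 and 21712 in the control. These groups overlapped, and its 3 probe sets had log2 differences of -0.08, -0.15 and -0.06. CWINV, an invertase of the cell wall, was below background on every array. GOLS, galactinol synthase of raffinose synthesis, was below background in the control, so that it was at least 1.57-fold higher in the lines. It passed the detection limit only through the RNAi lines, so it had to differ in that direction and no p-value is given.

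Since SWEET24 is known from the seed coat and the samples are labelled cotyledon, seed coat markers were set beside it. Of 12 probe sets of 8 such genes 8 were detected, with 2 called higher and 2 lower in the RNAi lines, where 1.05% and 0.594% of all tested probe sets were (list median -0.85), and their summed signal was 12618 to 14092 on the RNAi arrays and 24228 to 25490 on the control arrays. SCB1, a BURP protein first known from the seed coat, had 1157 and 1157 in RNAi line 1, 1258 and 1153 in RNAi line 2, and 278 and 248 in the control, and it rose by 2.10 (limma adjusted p = 0.0488). DFR1, an enzyme of anthocyanin synthesis, was called higher as well. It was below background in the control and passed the detection limit only through the RNAi lines, so it had to differ in that direction. PRP2 and SBPRP, proline-rich cell wall proteins, were called lower, with log2 differences of -1.51 and -1.43. At the other detected probe set of PRP2 it was -1.16 and was not called (limma adjusted p = 0.0561). ANR1 and PRP1 were below background on every array. SWEET24 thus moved with SCB1 and against the other detected marker genes of this list apart from DFR1, from which nothing is read. The part of seed coat RNA in the SWEET24 signal was not tested. In such bulk samples fewer cells of a type and less RNA per cell cannot be told apart. Of 13 probe sets of VSPA and CAB3, markers of leaf, 8 were detected. Of VSPA, 2 were called higher and 0 of the list lower, where 1.05% and 0.594% of all tested probe sets were. The called VSPA probe set with control signals of 91.1 and 59.7 counted as detected through the RNAi lines alone, so it had to differ in that direction. The summed signal of the list was 102682 to 141342 on the RNAi arrays and 130233 to 136762 on the control arrays.

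**Figure D5:**
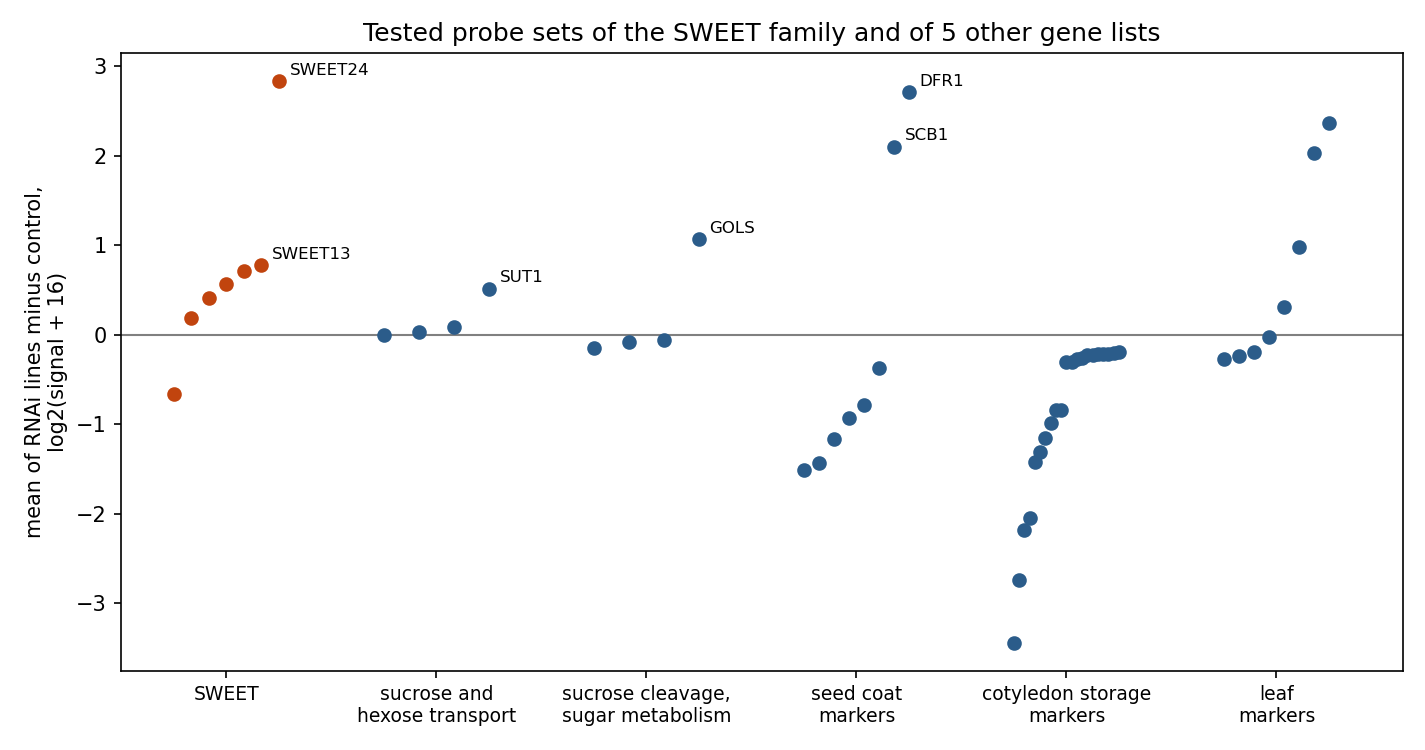
Mean of the RNAi lines minus the control in log2(signal + 16) for every tested probe set (1 dot each) of the SWEET family and of 5 other lists. SWEET24 lies at 2.84 and SCB1 of the seed coat list at 2.10, the DFR1 dot rests on control signals below background, and the transport list runs from 0.004 to 0.52.

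The probe sets most like SWEET24 and SWEET13 were looked for among 1192 others with a named gene, by the Euclidean distance between their log2 differences in the 2 lines, which rests on 3 samples and on the shared control. Nearest to SWEET24 was DFR1 (distance 0.17), with control signals of 7.32 and 5.01 that were below background, so that only a difference of at least 1.80-fold is known and its nearness cannot be read as a likeness. Next came a probe set of VSPA, a vegetative storage protein (distance 0.66), with 2.37 in both lines. The other detected VSPA probe sets did not move alike, with 2.04, 0.98 and -0.02 for the mean of the lines. Then came BG7S-2, a globulin of seeds (distance 0.87), with 2.17 in line 1 and 2.28 in line 2. Nearest to SWEET13 were OAS-TL2, of cysteine synthesis (distance 0.04), NIR, nitrite reductase (distance 0.04), and HPPD, of tocopherol synthesis (distance 0.04). Over all tested probe sets, 0.0838% of tested probe sets had a larger absolute difference than SWEET24 and 8.73% a larger one than SWEET13.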

How the data were processed

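Total RNA of 3 cotyledon samples was labelled with a one-cycle kit and hybridised to Affymetrix arrays, per the labels. The deposited values were linear intensities, 1 per probe set and array; the software is not given in the sources used here. As found from the values, the mean without the lowest and highest 2% of 61170 probe sets was 500.1 on every array, and no further scaling was done. Coordinates are left out because neither the labels nor the deposited table names a genome build, and the assembly of the RefSeq table served only for gene names and neighbours. Genes were named from the platform annotation, updated through RefSeq gene identifiers: 8681 soybean probe sets had 1 symbol, 366 several and 28546 none.

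Values were tested with limma 3.58.1 in R 4.3.3 (lmFit, eBayes), with Benjamini-Hochberg adjustment over 27460 detected probe sets at a threshold of 0.05. The lines against the control used 3 sample means (1 residual degree of freedom, prior 2.36), which assumes that the control varies as the lines do. Other contrasts used 6 arrays in 3 groups (3 residual degrees of freedom, prior 2.35). The fits were tested on simulated data. Where the dimmer group had no array above background, the fold is a bound (at least N-fold), with its signals raised to the limit of their array.

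Named were every SWEET gene, in each sugar list the 3 detected probe sets of largest absolute difference, and the 3 probe sets nearest to SWEET24 and to SWEET13; marker genes that were called, and genes below background, are named beside them. STP, in the transport list by its symbol alone, was not detected. The members, lists and tests were chosen with earlier results of these data known. Alternatives were other scalings, filters, pseudocounts, moderation, a replicate block and each array left out.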

Additional observations from a re-analysis of the deposited data

How the results depend on the processing

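The log2 difference of SWEET24 between the RNAi lines and the control (2.84) was 2.80 after median centring, 4.36 with arrays scaled to the spikes, 2.88 with a pseudocount of 1, 2.70 with one of 64, and 2.79 to 2.88 with 1 array left out. That of SWEET13 (0.78) was 2.34 with spike scaling and 0.75 to 0.81 with 1 array left out. Differences between the lines stayed uncalled for SWEET24 (adjusted p 0.838 to 1.00) and SWEET13 (0.784 to 1.00) under all settings run, and so did all other probe sets (0 called). Of SWEET probe sets, 7 were detected at the 90th percentile of background, 5 at the 99th and 5 when all 6 arrays had to pass.

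The count of probe sets called for the lines against the control (451) was 0 after quantile normalization, after median centring, with no filter and with a pseudocount of 1. It was 26511 with spike scaling, 3323 with the 99th percentile filter, 3547 with a pseudocount of 64, 8517 with an intensity trend and 5987 with 6 arrays as replicates. It ranged from 0 without any 1 of the 4 RNAi arrays to 1231 without control replicate 1 and 1884 without control replicate 2, so the call of SWEET24 rests on these settings. For line 1 (3924) the count was 26449 with spike scaling, 1065 with no filter, 6902 with a trend and 329 to 2518 with 1 array left out. For line 2 (4226) it was 26464, 1132, 7334 and 527 to 2045 in that order. The cause was not tested.

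Replicate numbers count technical arrays and do not pair the samples: correlations between same-numbered arrays of their deviations were -0.01 to 0.02. With the replicate block the counts were 4485 for the lines (on 6 arrays), 2201 for line 1 and 2545 for line 2. The differences are plain differences of sample means, so the block could not move them. With 1 control sample and probe sets near background, SWEET17, SWEET28 and SWEET29 are limited by signal.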
